A study of Bos taurus with 8 samples.

Results

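Notch pathway genes were followed across bovine eSLCs, the embryo-derived stem-like cells that grow as colonies from blastocysts, and bovine SCs (somatic cells). The set was a fixed list of 9 genes, namely the ligand JAG1, the receptors NOTCH1, NOTCH2 and NOTCH3, the co-activator MAML2, the DNA-binding factor RBPJ and the targets HES1, HEY1 and HEYL. Members were found on the array through the RefSeq accession of each probe. Of the 9 genes, 6 had such a probe, with 10 probes in all, out of 12602 genes and 26731 probes that could be named. No probe was named for NOTCH1, NOTCH2 or NOTCH3 by this route, and they were not analysed here. All 6 genes with a probe passed the filter on dim signals.

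Each of 8 cell samples was hybridized on its own one-colour Agilent bovine oligo microarray. The IVP-eSLCs, from in vitro produced (fertilized) blastocysts, were line I2 at passage 35 and line I9 at passage 30. The NT-eSLCs, from embryos made by somatic cell nuclear transfer with ear skin donor cells, were N2 at passage 36 and N7 at passage 30, and the PA-eSLCs, from parthenogenetic embryos, were P1 at passage 31 and P4 at passage 36. The SCs were measured at passages 5 and 10 (SC P5 and SC P10). All eSLC lines came from HanWoo embryos and were kept on mitomycin-C inactivated murine STO feeder cells in 3i medium with PD184352, SU5402 and CHIR99021, which inhibit MEK, the FGF receptor and GSK3, whereas SCs, for which the labels name no tissue, were kept in DMEM with serum. Culture and cell type therefore cannot be told apart. A line grew from a single blastocyst, and nothing states that SC P5 and SC P10 were separate cultures, so that the p-values measure only the spread between these samples.

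Signals are given as normalized signals, which are background-subtracted intensities divided by the 75th percentile of their array and multiplied by 1000. They were raised to a common floor of 13.3 before log2 values were taken. Between 71.2% and 76.7% of an array's spots were called well above background, the scanner software's mark that a spot is brighter than its background, and no spot was saturated. Only 2 arrays per condition limited the precision of every value. Slide 1 held both IVP arrays, N7 and SC P5, while slide 2 held both PA arrays, N2 and SC P10. Of the eSLC arrays N7 stood furthest from the others, with a mean Pearson's r of 0.955 to the other 5 across all genes tested against 0.967 to 0.976 for the rest. The summed signal of 8 fibroblast markers was 335572 to 395500 on the SC arrays and 4698 to 6884 on the eSLC arrays, and 7 of the 8 were lower in eSLCs. The 8 mural cell markers summed to 270679 to 369076 in SCs and 17833 to 46184 in eSLCs, with 4 of 7 tested lower and 2 higher, while RGS5 was too dim to be detected in SCs. The 5 keratinocyte markers summed to 3093 to 6430 in SCs and 1769 to 3810 in eSLCs, yet their median log2 difference was 0.62, with DSG3 higher in eSLCs and none lower. Endothelial markers summed to at most 151 in SCs and 367 in eSLCs, with PECAM1 higher in eSLCs, none lower, and CDH5 and EMCN not well above background on any array. In eSLCs, 9 trophectoderm markers summed to between 374679 and 1137920 against at most 13333 in SCs, where CDX2, ELF5 and PAG2 were not well above background, and 8 of the 9 were higher in eSLCs. The part of these cell type differences in the results on Notch genes was not tested, and in such bulk samples fewer cells of a type cannot be told apart from less RNA per cell.

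Notch signaling passes between touching cells. A ligand on one cell, such as JAG1, binds a NOTCH receptor on its neighbour, the receptor is cut first by an ADAM protease and then by gamma-secretase, and the freed intracellular domain enters the nucleus. There it joins RBPJ, which otherwise represses its targets, and recruits a Mastermind protein such as MAML2 to switch on HES and HEY genes. These encode bHLH repressors that hold back differentiation in many lineages. In mouse and human embryonic stem cells the pathway is known for its part in the choice of fate during differentiation.

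The first comparison asked how eSLCs differed from SCs. Of the 6 members, JAG1 and MAML2 were lower and HEY1 was higher in eSLCs, and RBPJ, HES1 and HEYL did not pass the test. DEGs were called by limma at an adjusted p under 0.05 and a difference of at least 2-fold in 1 fit over 8 arrays. By this rule 1 of 6 members was called higher, against 19.7% of the 10956 genes tested, and 2 of 6 were called lower, against 15.7%. The share of called members in either direction, 3 of 6, stands beside 35.4% of all genes. The median log2 difference of the members was -0.81, against 0.23 for all genes tested. The 6 eSLC arrays did not overlap the 2 SC arrays for 5 of the 6 members, 2 with eSLCs higher and 3 with eSLCs lower. The same was found for 57.6% of all genes tested, with eSLCs higher for 34% and lower for 23.6%. JAG1 and MAML2 stand in gene sets that the study itself examined for differences in these samples, so that their difference from SCs is not independent of that choice.

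**Figure D1:**
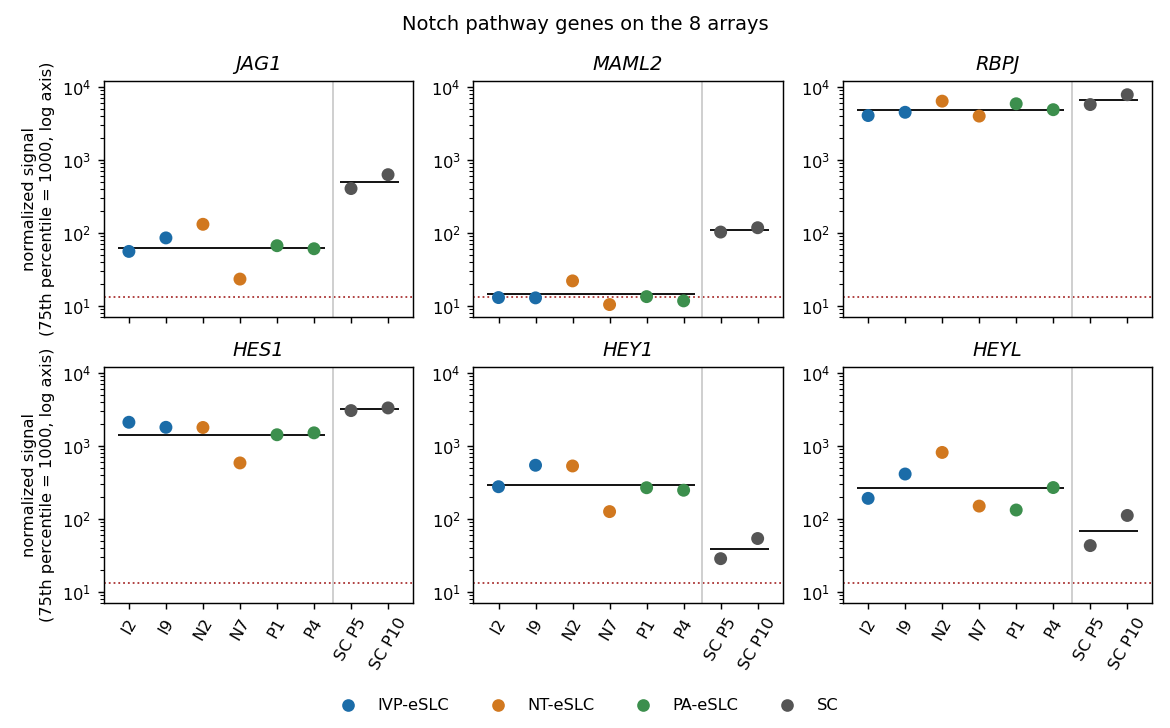
Normalized signal of the brightest probe of 6 Notch pathway genes on each of the 8 arrays, on a log axis with the 75th percentile of an array at 1000. Points are single arrays, horizontal lines are means of log2 values of eSLCs and of SCs, and the dotted line is the floor of 13.3. JAG1 and MAML2 lie lower and HEY1 higher on all 6 eSLC arrays than on both SC arrays, and only RBPJ overlaps.

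JAG1 encodes Jagged-1, a membrane ligand that activates NOTCH receptors on neighbouring cells. Its normalized signal was 55.4 in I2, 84.8 in I9, 130.3 in N2, 23.1 in N7, 66.3 in P1 and 60.3 in P4, compared with 403 (SC P5) and 624 (SC P10). Every eSLC array was below both SC arrays, and the highest line, N2, was still below SC P5. The log2 difference was -3.02 ± 0.64 (SE, n = 6 and 2 arrays, limma adjusted p = 0.0113), which is 8.09-fold lower. The call needed both SC arrays, since the adjusted p was 0.0827 without SC P5 and 0.121 without SC P10. A second JAG1 probe was dim, with signals under 8 on 5 eSLC arrays where it was not well above background, 34.8 in P4 and 9.05 and 23.4 in SC P5 and SC P10, and its log2 difference was -0.18 (limma adjusted p = 0.747). With the mean of both probes the difference was -1.60 and kept the call. SCs, where JAG1 was high, were also the samples with high fibroblast and mural marker signals given above.

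NOTCH4 was the only receptor gene with a named probe. It is best known from endothelial cells. Its signals were 410.2 in I2, 356 in I9, 227 in N2, 461 in N7, 153 in P1 and 179 in P4, compared with 431 (SC P5) and 341 (SC P10). Both PA lines lay below both SC arrays, and so did the NT line N2, whereas I2, I9 and N7 did not. Every array of slide 2, which held both PA lines, N2 and SC P10, was below every array of slide 1. The part of the slide in the PA values was not tested. For all eSLCs the log2 difference was -0.49 ± 0.30 (limma adjusted p = 0.22) and no call was made. PA-eSLCs alone were called lower than SCs, by 1.21 on the log2 scale, but the difference between PA- and IVP-eSLCs was not called. 

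MAML2, a Mastermind-like co-activator of the NOTCH and RBPJ complex that is also known from oncogenic gene fusions, was close to the limit of measurement in eSLCs. Its signal before the floor was 12.9 in I2, 12.8 in I9, 21.8 in N2, 10.3 in N7, 13.3 in P1 and 11.6 in P4, compared with 102 (SC P5) and 117 (SC P10). The probe was flagged well above background on all 8 arrays, yet 5 of the 6 eSLC signals were under the common floor and have no order among themselves. The log2 difference with the floor was -2.92 ± 0.22 (limma adjusted p = 0.000216), and with a lower floor it was -3.03. IVP- and PA-eSLCs lay at the floor on both arrays. By the signals before the floor, SCs were 8.51-fold higher than IVP-eSLCs and 8.79-fold higher than PA-eSLCs, as ratios of measured signals and not as lower limits. MAML2 stayed called without any 1 of the 8 arrays.

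RBPJ is the DNA-binding protein through which all NOTCH receptors act. Its signal was 4038 in I2, 4473 in I9, 6356 in N2, 3968 in N7, 5853 in P1 and 4857 in P4, compared with 5711 (SC P5) and 7788 (SC P10). N2 and P1 exceeded SC P5, so that the groups overlapped. The log2 difference was -0.46 ± 0.24 (limma adjusted p = 0.17), with a 95% confidence interval from -1.06 to 0.14. Its second probe ranged from 242 to 412 in eSLCs and from 373 to 411 in SCs and overlapped too.

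HES1, a bHLH repressor and one of the best known direct targets of NOTCH, was bright in all samples. Its signal was 2112 in I2, 1801 in I9, 1792 in N2, 585 in N7, 1425 in P1 and 1513 in P4, compared with 3054 (SC P5) and 3322 (SC P10). All eSLC arrays were below both SC arrays, with N7 far below the other lines. The log2 difference of -1.15 ± 0.41 missed the threshold (limma adjusted p = 0.061), with a 95% confidence interval from -2.16 to -0.15. Without N2 it was -1.42 and called (limma adjusted p = 0.00193), and without N7 it was -0.88.

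HEY1, a bHLH repressor related to HES1 and another direct target, went the other way. Its signal was 276 in I2, 544 in I9, 532 in N2, 126 in N7, 268 in P1 and 247 in P4, compared with 28.5 (SC P5) and 53.8 (SC P10). Even N7, the lowest line, exceeded both SC arrays. The log2 difference was 2.91 ± 0.60 (limma adjusted p = 0.01), which is 7.54-fold higher. This call also needed both SC arrays, with an adjusted p of 0.122 without SC P5 and 0.0607 without SC P10. The second HEY1 probe gave 12.1 to 34.9 on 5 eSLC arrays and was not well above background in N7 or in either SC array. By itself this dim probe differed by 0.54 (limma adjusted p = 0.282) and was not called. With the mean of both probes the difference was 1.73 and kept the call, but with the scanner's processed signal it was -0.61 and not called.

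HEYL, the third member of the HEY family, had scanner signals above those of SCs on all 6 eSLC arrays, with a wider spread than HEY1 and without a call. Its signal was 191 in I2, 412 in I9, 815 in N2, 149.8 in N7, 132 in P1 and 269 in P4, compared with 43.1 (SC P5) and 111 (SC P10). The lowest eSLC line, P1, was only just above SC P10, and the SC arrays themselves were 2.59-fold apart. The log2 difference was 1.93 ± 0.76 and missed the threshold (limma adjusted p = 0.0835). It was called without N7, at 2.34 (limma adjusted p = 0.0281). The second HEYL probe ranged from 12.3 to 26.2 in eSLCs and was 23.1 and 14.0 in SCs, so that it overlapped, and its difference was 0.23. With the authors' series matrix values the direction turned, to -0.35 for all eSLCs, -0.49 for IVP- and -0.73 for PA-eSLCs.

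The directions were the same within both slides. Within slide 1 and slide 2, the eSLC arrays differed from the SC array by -3.08 and -2.96 for JAG1 on the log2 scale. The corresponding values were -2.94 and -2.90 for MAML2, -0.46 and -0.46 for RBPJ and -1.23 and -1.08 for HES1. They were 3.22 and 2.61 for HEY1 and 2.40 and 1.46 for HEYL, each from 3 eSLC arrays and 1 SC array. With the slide as a block, HES1 (limma adjusted p = 0.0372) and HEYL (limma adjusted p = 0.0255) were called as well.

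The eSLCs of each origin were next set against SCs. These comparisons share the 2 SC arrays. Of all genes tested, 32.3% were called for IVP-eSLCs, 29.8% for NT-eSLCs and 35.3% for PA-eSLCs. Among the 6 members, 3 were called for IVP-eSLCs, 4 for NT-eSLCs and 3 for PA-eSLCs. JAG1 differed by -2.87 in IVP-, -3.19 in NT- and -2.99 in PA-eSLCs on the log2 scale, and was called lower in each (limma adjusted p = 0.0331, 0.0254 and 0.027). HEY1 differed by 3.31, 2.72 and 2.71 and was called higher in each (limma adjusted p = 0.0168, 0.0341 and 0.0297). MAML2 was called lower in each, by 2.68 on the log2 scale in NT-eSLCs, where N2 was above the floor. HES1 was called in NT-eSLCs only, at -1.64 (limma adjusted p = 0.0499). That call was lost under 15 of 23 other settings, among them without N7, where the difference was -0.83, and the values in IVP- and PA-eSLCs were -0.71 and -1.12. HEYL differed by 2.02, 2.33 and 1.45 and RBPJ by -0.65, -0.41 and -0.32, and neither was called in any origin. The JAG1 and HEY1 calls by origin were lost in 1 or more origins when any 1 of several arrays was left out. Without the filter on dim signals JAG1 was called in no origin and HEY1 in IVP-eSLCs only. With the mean of probes the calls of JAG1 in PA-eSLCs and of HEY1 in NT- and PA-eSLCs were lost, and with a doubled floor that of HEY1 in NT-eSLCs.

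**Figure D2:**
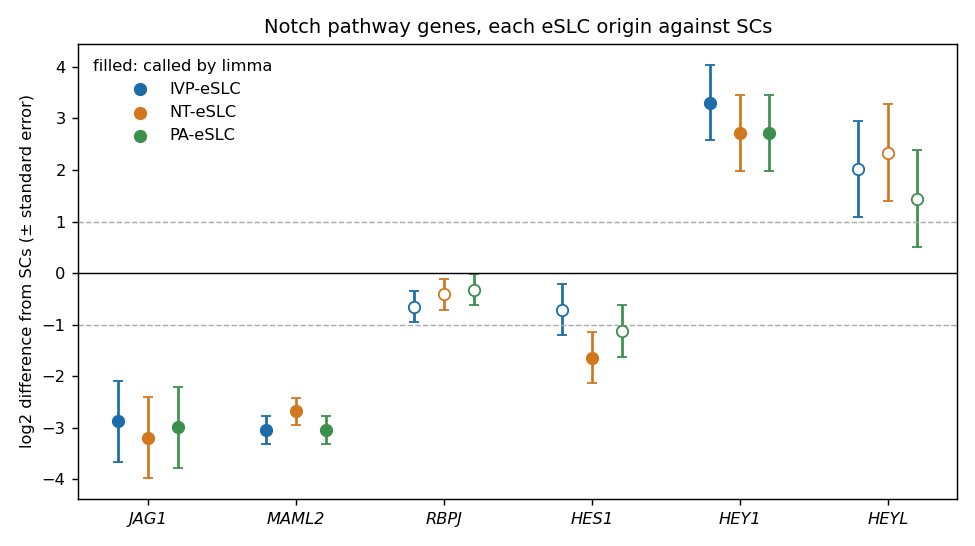
Log2 difference from SCs of 6 Notch pathway genes in IVP-, NT- and PA-eSLCs (2 arrays each, against the same 2 SC arrays), with the standard error of the limma fit. Filled points were called and open points were not, and dashed lines mark a 2-fold difference. The 3 origins lie close to each other for JAG1, MAML2 and HEY1.

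The study also asked whether the embryo's origin leaves a difference among eSLCs. It reported differing genes in both comparisons, by an absent/present filter and a 2-fold cut-off, and checked some by real-time PCR. The rule used here also asks for an adjusted p under 0.05 and is stricter. No member was called when NT-eSLCs or PA-eSLCs were set against IVP-eSLCs, and neither was any of the 10956 genes tested (0% called by limma, with 307 and 567 genes at an unadjusted p under 0.05 and no member among them). With the series matrix values, 93 genes were called higher and 5 lower in NT- against IVP-eSLCs, and 0 and 3 in PA- against IVP-eSLCs, with no member among them. In the main fit, log2 differences of the members lay between -0.93 for HES1 and 0.36 for MAML2 in NT- against IVP-eSLCs. They lay between -0.59 for HEY1 and 0.33 for RBPJ in PA- against IVP-eSLCs. No PA line shared a slide with an IVP line. The main fit therefore cannot separate origin from slide for PA- against IVP-eSLCs. The intervals were wide. For HEY1 in PA- against IVP-eSLCs the 95% confidence interval ran from -2.39 to 1.21, and for HEYL from -2.87 to 1.72, so that differences of several fold were not detectable with these arrays. Without N2, HES1 differed by -1.74 from IVP-eSLCs, with N7 as the only NT array left. N7 was also the eSLC array least like the others, with a mean r of 0.955.

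The NT lines differed from each other more than the means of the origins did. N2 and N7 lay on different slides, whereas the lines of each other origin shared a slide. Line and slide therefore cannot be told apart for the NT lines. JAG1 was 5.64-fold apart between N2 and N7, both NT-eSLCs, and HEY1 4.22-fold, HEYL 5.44-fold and HES1 3.06-fold. The 75th percentile used for scaling was the lowest of all arrays in N2 (1191 units) and the highest in N7 (4086 units). The part of this scaling in the folds was not tested. On the log2 scale, the PA lines differed by only 0.14 for JAG1, 0.11 for HEY1 and 0.09 for HES1, but by 1.02 for HEYL. The IVP lines differed by 1.53-fold for JAG1, 1.97-fold for HEY1 and 2.16-fold for HEYL. The SD of log2 signals over the 6 eSLC arrays was 0.99 for HEYL, 0.83 for JAG1, 0.79 for HEY1 and 0.66 for HES1, against a median of 0.35 for all genes tested. Of the genes tested, 91.8% had a smaller SD than HEYL, 87.9% than JAG1, 86.6% than HEY1 and 81.3% than HES1. RBPJ, at 0.28, varied less than most genes, with 35.4% below it. MAML2 lay at the floor in all lines but N2.

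N7 and N2 recurred at the ends of the order of the lines, which otherwise differed from gene to gene. I2, for example, was the highest line for HES1 but second lowest for JAG1 and RBPJ. N7 was the lowest line for JAG1, HES1, HEY1 and RBPJ and second lowest, after P1, for HEYL. N2 was the highest for JAG1, RBPJ, HEYL and MAML2, and I9 slightly exceeded it for HEY1, at 544 against 532. P1 and P4 were neighbours in the order for JAG1, HES1 and HEY1. With 1 array a line, neighbouring lines cannot be separated beyond the spread. Within an origin, the line at the later passage was the higher one for JAG1, RBPJ and HEY1 in 1 of 3 origins, for HEYL in 2 and for HES1 in 3.

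Pearson's r of log2 signals over the 6 eSLC arrays, given as a description, was 0.94 for JAG1 and HEY1 (Spearman's rho 0.77). It was 0.90 over the 4 arrays left without N2 and N7. For HEY1 and HEYL it was 0.80 (rho 0.66), and for JAG1 and HEYL 0.77 (rho 0.66). For JAG1 and HES1 it was 0.82 (rho 0.31), but -0.14 without N2 and N7, so that it rested on these lines. These arrays share slides and a scaling to the same percentile. Over all 8 arrays r was -0.59 for JAG1 and HEY1 and 0.89 for HEY1 and HEYL. Among eSLC lines every pair of members had a positive r, from 0.24 for MAML2 and HES1 to 0.94 for JAG1 and HEY1. The highest rho, 0.83, was that of JAG1 and RBPJ. A positive r was thus not particular to JAG1 and HEY1, and between eSLCs and SCs JAG1 was lower and HEY1 higher.

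**Figure D3:**
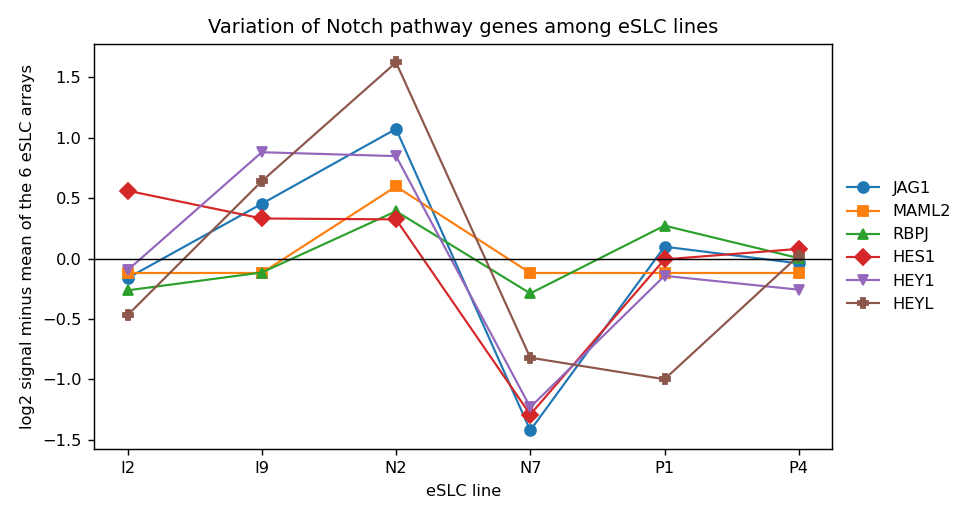
Log2 signal of 6 Notch pathway genes in each eSLC line, minus the gene's mean over the 6 eSLC arrays, with 1 array a line and lines drawn only to join the values of a gene. N7 lies lowest for JAG1, HES1 and HEY1, N2 lies highest for JAG1 and HEYL, and RBPJ varies little.

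For each member, the 3 tested genes with the highest r over the 8 arrays were found. Both SC arrays entered this r. For members far apart between eSLCs and SCs, a shared direction against SCs therefore follows from the choice and is no separate result. For JAG1 they were AFAP1, CSRP1 and ALCAM (r = 0.997, 0.997 and 0.994), each by this choice lower in eSLCs. HEY1 was followed most closely by NACC1, ADGRL3 and GUCY2C (r = 0.992, 0.992 and 0.988), each likewise higher in eSLCs. For HES1 the first was NUMB (r = 0.986), which encodes an endocytic adaptor that restrains NOTCH receptors, followed by PDE6D and ASAP1. NUMB itself differed by only -0.31 (limma adjusted p = 0.19). HEYL was closest to DYNLL2 (r = 0.981), TCF20 and CEP290, RBPJ to TNFAIP1 (r = 0.970), YAF2 and NRAP, and MAML2 to C4H7orf57, CHST13 and PLAGL1. The genes closest to RBPJ, TNFAIP1 (-0.67), YAF2 (-0.73) and NRAP (-0.20), were not called either.

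The other genes of the pathway were taken from a list of 66 by role, of which 47 had a named probe and 44 were tested. In eSLCs against SCs 8 were higher, 6 were lower and 30 were not called, beside 19.7% higher and 15.7% lower among all genes tested. The median log2 difference of the list was 0.08, against 0.23 for all genes. No gene was called among the sugar transferases and the nuclear co-activators.

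**Figure D4:**
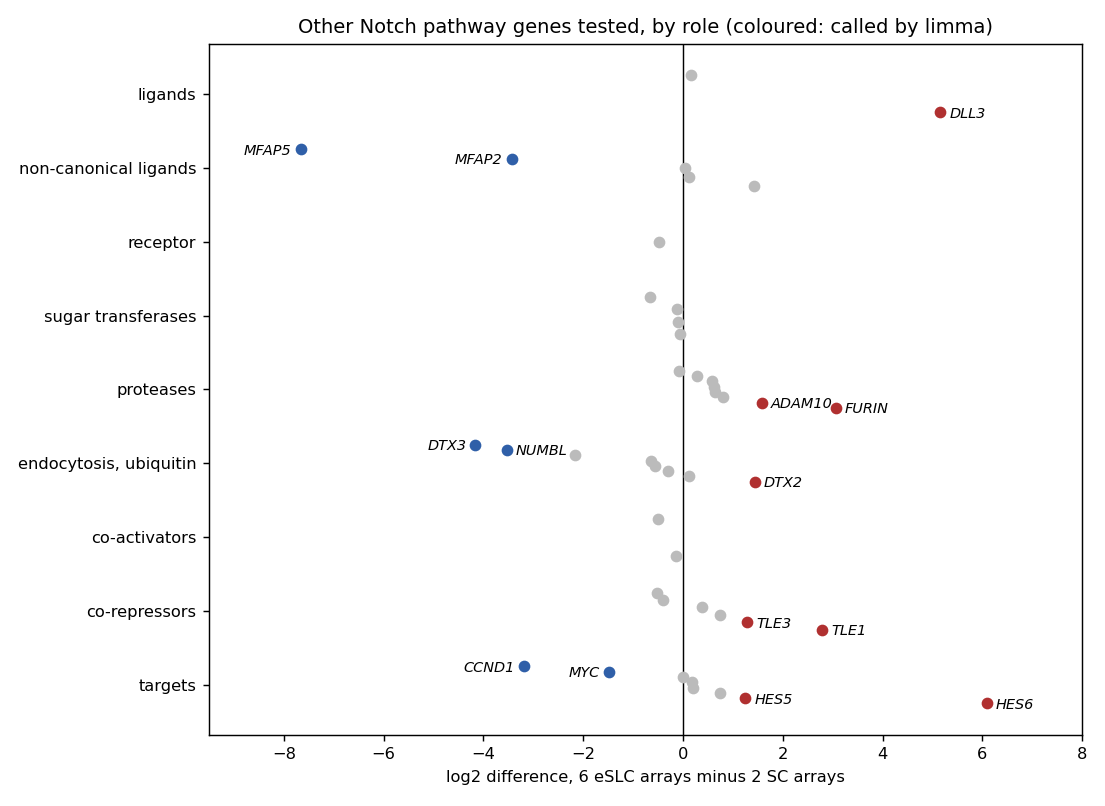
Log2 difference between 6 eSLC arrays and 2 SC arrays for 44 other Notch pathway genes, grouped by role, 1 point a gene. Named points were called by limma, 8 higher to the right and 6 lower to the left, and grey points were not called.

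Among ligands, DLL3 moved opposite to JAG1. DLL3 is a divergent Delta ligand that does not activate receptors on neighbouring cells and is known to hold back NOTCH within its own cell. Its signal was 679 in I2, 542 in I9, 527 in N2, 507 in N7, 555 in P1 and 701 in P4, compared with 20.1 (SC P5) and 12.4 (SC P10). The 6 lines lay within a narrow range far above SCs, and the log2 difference was 5.15 ± 0.22 (limma adjusted p = 2.61e-05), with SC P10 at the floor. DLL4 reached at most 19.4 in eSLCs and was not above background in SCs. Of the non-canonical ligands, the microfibril proteins MFAP2 and MFAP5, which are matrix proteins of fibroblasts that can also bind NOTCH1, were lower. MFAP5 was at most 306 in eSLCs, in N7, and under the floor in I2 and P1, against 7061 and 6688 in SCs, and MFAP2 ranged from 769.8 to 14876 in eSLCs against 37503 and 30139. DLK1, DLK2 and EGFL7 were not called, with differences of 0.11, 0.05 and 1.42.

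The sugar transferases LFNG, MFNG, POFUT1 and POGLUT1 were not called and differed by -0.67 to -0.06. Of the 8 proteases tested, 2 were called higher, beside 19.7% of all genes tested. ADAM10, the protease that makes the ligand-induced cut, had signals of 3113 to 7425 in eSLCs against 1418 and 1340 in SCs, a log2 difference of 1.58 ± 0.32 (limma adjusted p = 0.00999). FURIN, which cleaves the receptor precursor on its way to the surface, had 82.1 to 194 against 12.6 and 18.4, a difference of 3.06 ± 0.41 (limma adjusted p = 0.00207). PSEN2, NCSTN, APH1A, APH1B and PSENEN, which belong to gamma-secretase, differed by -0.07 to 0.80 and were not called. NCSTN (0.58) and APH1A (0.80) had adjusted p-values under the threshold but stayed below 2-fold.

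Among genes for endocytosis and ubiquitylation, the NUMB-related adaptor NUMBL fell from 2062 and 1827 in SCs to 122 to 223 in eSLCs, a log2 difference of -3.53 ± 0.20 (limma adjusted p = 6.53e-05). DTX3, a Deltex-family ubiquitin ligase, was lower by 4.16 on the log2 scale, with 163 to 1520 in eSLCs against 7743 and 6915 in SCs. DTX2, another Deltex gene, was higher, at 358 to 621 against 180.5 and 157 (1.44 ± 0.21). ITCH, MIB1, NEURL1, NUMB and DTX3L were not called.

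In the nucleus, CREBBP and SNW1 were the co-activators tested beside MAML2 and differed by -0.51 and -0.14 without a call. The Groucho-type co-repressors TLE1 and TLE3, which HES proteins recruit, were both higher. TLE1 had 498 to 1267 in eSLCs against 111 and 117 in SCs, a log2 difference of 2.79 ± 0.27 (limma adjusted p = 0.00056), and TLE3 differed by 1.29 ± 0.27. NCOR1, CTBP2, HDAC1 and HDAC2 were not called.

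The other genes grouped under targets in the list moved both ways, and whether NOTCH drives any of them in these cells was not tested. HES6, a HES-family gene known to counteract HES1, had 3039.5 in I2, 1323 in I9, 797 in N2, 679.5 in N7, 2929.8 in P1 and 1198 in P4, against 20.8 and 20.6 in SCs. Its log2 difference of 6.08 ± 0.44 (limma adjusted p = 0.000187) was the largest rise among the 44 genes tested. HES5 was higher by a small margin, at 90.6 to 261 against 81.5 and 73.0 (1.25 ± 0.38). The cyclin gene CCND1 was lower, at 1581 to 3545 against 18121 and 21962 in SCs (-3.19 ± 0.20, limma adjusted p = 0.000102), and MYC was lower by 1.49. HES2 ranged from 798 to 6907 in eSLCs around SC values of 2449 and 2005, with N2 and I9 highest, as for JAG1 and HEY1. HES7, HEY2 and FBXW7 were not called. Within this list, the calls of ADAM10, DTX3, MFAP2, HES5 and MYC were lost without either SC array and that of TLE3 without SC P5. HES5 and MYC also lost theirs without I2, I9, P1 or P4, whereas DLL3, HES6, FURIN, NUMBL, CCND1, TLE1, DTX2 and MFAP5 stayed called without any 1 array.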

How the data were processed

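Total RNA of 8 samples was labelled with Cy3 and hybridized to Agilent 44K arrays. The authors scanned the arrays with Agilent Feature Extraction 11.5.1.1 and normalized them with GeneSpring GX. The deposited scanner files hold linear signal intensities per spot, not normalized between arrays, and the deposited series matrix holds 1 processed intensity per probe, whose scaling was not given in the sources used here.

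Control and outlier spots were left out, spots of 1 of 43637 probes were averaged, and signals were scaled to the 75th percentile of the array (1191 to 4086 units), floored and taken to log2. Probes were named by accession through the RefSeq table of assembly ARS-UCD2.0. The brightest probe stood for a gene. A gene entered the test when both arrays of some condition were flagged well above background. Means of the 4 conditions were fitted over the 8 arrays with limma 3.58.1 (R 4.3.3, lmFit, eBayes, Benjamini-Hochberg), a step checked on simulated data. Figures were drawn with matplotlib 3.10.9. The scanner's processed signal correlated poorly with the background-subtracted signal in 6 files (Spearman's rho 0.16 to 0.22, against 0.97 in the others) and served only as an alternative. Named were all members, the called genes of the wider list and the 3 most similar genes. The members and lists were chosen with earlier results of these data known. Alternatives were other scalings, filters, floors, probe rules and tests, the slide as a block and leaving out each array. No sequence is shown. For the MAML2 folds before the floor, each array gave the probe's own signal, which was above the faintest signal flagged well above background on that array. The values of 1 gene of the wider list are not reported here.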

Additional observations from a re-analysis of the deposited data

Results flagged for a closer look

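For 2 results, 1 eSLC array stood apart from the other 5 by Dixon's criterion, which compares the gap to the nearest value with the whole range of the 6 arrays at its 95% limit. HES1 in N7, at 585 against 1425 to 2112 in the other lines, had a gap of 0.693 of the range. MAML2 in N2, at 21.8 against 10.3 to 13.3, had a gap of 1 because the other 5 arrays lay at the floor, and of 0.665 on signals without the floor. Chance flags about 1 in 20 groups, and 6 genes were examined. The mean r of N7 to the other eSLC arrays, 0.955, was the lowest of the 6. The part of either line in these values was not tested.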

How the results depend on the processing

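Each result was recomputed under up to 23 settings, 21 of them set in advance and 2 (normexp on the median spot signal and a lower floor) chosen after seeing the data. A planned normexp on the mean spot signal was not run because the scanner files used here hold the median and not the mean spot signal, and for all eSLCs the fit on only the conditions compared is the main one. Quantile normalization moved the median log2 difference of all genes from 0.23 to 0.12 and turned no member's direction. No paired analysis was possible because the labels give no replicate numbers that pair samples.

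For eSLCs against SCs, members called higher (1) and lower (2) numbered 0 and 0 with the processed signal and 0 and 1 with SCs as 1 sample, and 2 were higher with the slide as a block. Leaving out 1 array gave 0 to 2 higher (0 without SC P5 or SC P10, 2 without N7) and 1 to 3 lower (1 without either SC array). Of the wider list, 2 higher and 1 lower were called with the processed signal, 5 and 3 with SCs as 1 sample, and 5 to 8 and 3 to 7 with 1 array left out, the lowest without SC P5 (and for lower genes also without SC P10). With the processed signal no member was called for any origin, and with SCs as 1 sample 1 was called for each. IVP-eSLCs had 1 member called by the methods' t-test adjusted and 1 to 3 with an array left out (1 without I2, I9, P4 or either SC array). NT-eSLCs had 1 without a filter, 2 with a doubled floor, 1 with only the conditions compared, 0 by the methods' t-test adjusted and 1 unadjusted, and 1 to 4 with an array left out (1 without any of I2, I9, P1, P4 or the SC arrays). PA-eSLCs had 1 without a filter, 1 with the mean of probes and 1 to 4 with an array left out (1 without I2, P1, P4 or either SC array). NT- against IVP-eSLCs had 0 in every setting but that without N2, where N7 was the only NT array left. With 1 array left in a condition, that array is assumed to vary like the others. Calls over all 10956 genes fell too. For eSLCs against SCs, 276 were higher and 188 lower with the processed signal, against 2155 and 1720 in the main fit. For NT-eSLCs, 149 and 147 were called by the methods' t-test adjusted, against 1733 and 1527. Calls were also fewer with SCs as 1 sample. A loss of calls was thus not particular to the members.

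Directions turned only with the processed signal or the series matrix values. With the processed signal, RBPJ was 0.068 for all eSLCs, 0.26 for NT- and 0.27 for PA-eSLCs. HEY1 was -0.61, and -1.09, -0.71 and -0.015 for IVP-, NT- and PA-eSLCs. HEYL was -0.00051 for IVP- and -0.24 for PA-eSLCs, FURIN -0.34 and NUMBL 1.17. With the series matrix, RBPJ was 0.15 for PA-eSLCs, and HEYL was -0.35 for all eSLCs, -0.49 for IVP- and -0.73 for PA-eSLCs. The causes were not tested. MAML2 lost its call for all eSLCs only with the processed signal (limma adjusted p = 0.0658), and JAG1 and HEY1 also with SCs as 1 sample (limma adjusted p = 0.0982 and 0.0836) or without either SC array. Dim second probes and 2 SC arrays limit these comparisons.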

Other observations

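The series matrix of the authors gave another picture of replicate spread for some members. Between the paired arrays of a condition, its values for the brightest probes of JAG1, MAML2, RBPJ and HES1 differed by 0.234% to 8.67%, whereas the scanner signals of these probes differed by up to 5.64-fold, for JAG1 between N2 and N7. For HEY1 the matrix values differed by up to 2.78-fold, between I2 and I9. The 2 probes of RBPJ share 1 matrix value in I2 (720) and 1 in SC P5 (986), and so do the 2 probes of HEYL (68.0 and 76.0), although their scanner signals differ. Over all probes well above background, matrix values of paired arrays lay within 10% of each other for 12.5% to 33.6% of the probes, and scanner signals for 16.1% to 30.6%. How the matrix was made beyond its software was not given in the sources used here.

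Among the 3 genes of the wider list that were too dim to test, RBPJL, the pancreas-restricted relative of RBPJ, and CNTN1 were under the floor on all 8 arrays. DTX1 reached 35.7 in P1 and 15.3 in I2 and was not well above background on the other 6 arrays.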
